A study of Mus musculus with 6 samples.

Results

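TRAV14 is a family of variable (V) genes of the T cell receptor (TCR) α chain, and the chains described here were all those built from it in CD4 T cells that bound a P2/I-Ab tetramer, a reagent that displays an epitope of the retinal protein IRBP on the mouse MHC class II molecule I-Ab. Members were chosen by V gene name alone. Every productive α chain contig (TRA; an assembled transcript with an open reading frame) whose V gene was called as TRAV14, TRAV14D or TRAV14N followed by a gene number was kept, and TRAV14D-3-DV8, which the α and δ loci share, was left out. This gave 72 contigs of 1123 productive TRA contigs, each in a different cell, among 999 cells with a productive TRA.

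The cells were sorted from pooled cervical (eye-draining), submandibular and axillary lymph nodes of AireGW/+ Lyn-/- mice at 9 weeks of age. All 3 groups of animals had this genotype: the Aire GW allele acts dominantly to weaken Aire, which drives the display of tissue antigens in the thymus, and Lyn is a Src-family kinase that restrains myeloid and B cell signalling. The groups were uveitis dataset 1 and uveitis dataset 2, from separate experiments on pools of 7 and 8 mice with uveitis (which dataset came from which pool is not settled here), and 1 dataset from 16 pooled mice without uveitis. Cells could not be assigned to single animals, so a clonotype seen in several cells may come from 1 mouse. With 2 pools against 1 no test between conditions was possible; exact (Clopper-Pearson) 95% intervals are given and cover counting error only.

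The 3 tables listed 212, 365 and 512 cell barcodes for dataset 1, dataset 2 and the mice without uveitis, with 5302, 7439 and 21408 UMIs (unique molecular identifiers, counts of captured transcripts). The mice without uveitis therefore had more UMIs per barcode, and the part of this difference in the results was not tested. Numbers of reads were not compared. The tables hold TCR sequences and no CD4 or Foxp3 reads, so the CD4 label could not be checked against marker genes; 71 of the 72 TRAV14 cells also had a productive β chain (TRB). One cell barcode was listed both in dataset 2 and in the mice without uveitis, and in the latter it held a TRAV14 chain. Without it the share of cells with TRAV14 in mice without uveitis was 10.8%, against 11.0% with it.

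An α chain is made in the thymus when 1 V gene is joined to 1 of many joining (TRAJ) genes, with bases trimmed from both ends and others added between them. The join forms the third complementarity-determining region (CDR3α), which lies over the peptide, while CDR1 and CDR2 are read from the V gene and mostly meet the MHC molecule. Both copies of the α locus can rearrange in 1 cell, so some mature T cells carry a pair of in-frame α chains with a single β chain.

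In the GRCm38 assembly (GENCODE M21), 9 Trav14 genes lie on the plus strand of chromosome 14 between positions 52855614 and 53763694, each with 2 exons and annotated as a TCR V gene, in an array that was duplicated so that D and N copies repeat parts of it. Over the 273 bases that end with the codon of the conserved cysteine, where CDR3α begins, the 8 genes other than Trav14d-3-dv8 held 6 distinct sequences. Trav14d-1 and Trav14n-1 were identical over their whole transcripts, and so were Trav14d-2 and Trav14n-2. The other pairs differed at 5 to 20 bases, or 3 to 14 codons read as amino acids. The stretch of 60 bases with the most variable positions (12 of the 30 in the 273 bases) holds the part that encodes CDR1, and is shown for each distinct sequence to make clear how little tells the genes apart. Capitals mark bases that differ from Trav14-1.
Trav14-1, chr14:53554328-53554387: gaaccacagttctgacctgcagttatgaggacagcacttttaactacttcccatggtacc
Trav14-2, chr14:53640995-53641054: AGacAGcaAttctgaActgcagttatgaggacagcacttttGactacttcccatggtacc
Trav14-3, chr14:53763464-53763523: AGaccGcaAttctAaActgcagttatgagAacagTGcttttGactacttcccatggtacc
Trav14d-2, chr14:52948939-52948998: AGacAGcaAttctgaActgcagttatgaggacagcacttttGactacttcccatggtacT
Trav14n-1, chr14:53166948-53167007: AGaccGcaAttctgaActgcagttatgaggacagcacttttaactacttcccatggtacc
Trav14n-3, chr14:53370345-53370404: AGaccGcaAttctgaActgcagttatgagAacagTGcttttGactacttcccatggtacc

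All 9 genes end in the same 13 bases from the cysteine codon on, tgtgcagcaagtg, so differences between TRAV14 genes did not reach CDR3α. Contigs called TRAV14N-1 cannot be told from Trav14d-1 by these sequences, and contigs called TRAV14D-2 cannot be told from Trav14n-2. The map of pairwise differences shows both pairs of twins and the nearest distinct pair, Trav14-3 and Trav14n-3, at 5 bases.

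**Figure D1:**
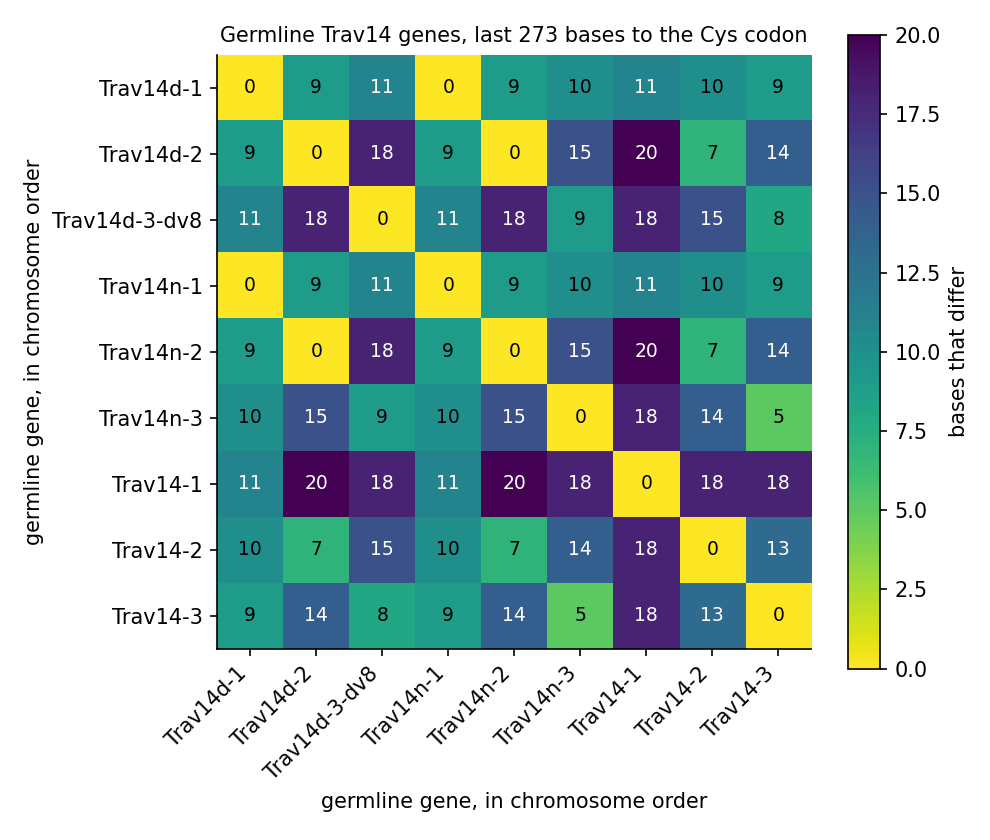
Number of bases that differ between each pair of the 9 germline Trav14 genes over the 273 bases up to the cysteine codon, with genes in chromosome order on both axes and the colour giving the same count as the printed number. Trav14d-1 and Trav14n-1, and Trav14d-2 and Trav14n-2, differ at 0 bases.

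A TRAV14 chain was found in 12 of 186 cells with a TRA in uveitis dataset 1 (6.45%, interval 3.38 to 11.0%), in 7 of 330 in uveitis dataset 2 (2.12%, 0.857 to 4.32%) and in 53 of 483 in mice without uveitis (11.0%, 8.33 to 14.1%). The mean over the uveitis pools was 4.29% ± 3.06 (SD, n = 2). The interval of the mice without uveitis lay above that of dataset 2 and overlapped that of dataset 1, and the intervals of both uveitis datasets overlapped. All of them treat cells as independent draws, which cells of 1 clonotype are not. The share without uveitis exceeded dataset 1 by 4.52 percentage points and dataset 2 by 8.85, while dataset 1 lay 4.33 points above dataset 2. The difference from dataset 1 was therefore about as large as the difference between pools of the same condition.

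Counting each distinct TRA-TRB clonotype once (V gene, J gene and CDR3 bases of both chains identical) brought the datasets closer. TRAV14 made up 11 of 154 clonotypes in dataset 1 (7.14%, 3.62 to 12.4%), 7 of 155 in dataset 2 (4.52%, 1.83 to 9.08%) and 44 of 473 in mice without uveitis (9.30%, 6.84 to 12.3%), and all 3 intervals overlapped. The plot of both shares shows the narrower gap between dataset 2 and the mice without uveitis when clonotypes are counted: the ratio was 5.17 by cells and 2.06 by clonotypes.

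**Figure D2:**
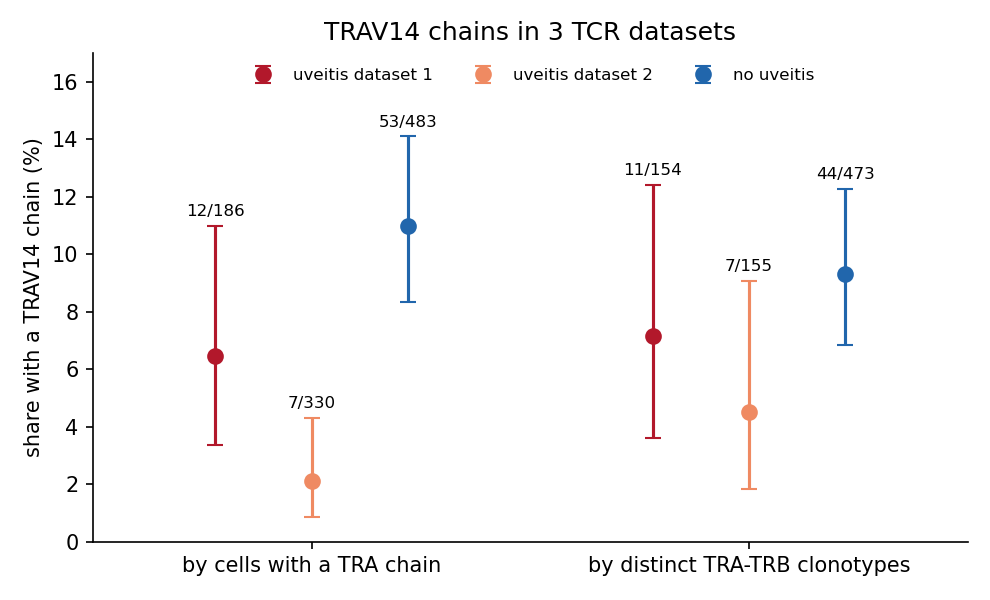
Share of cells with a TRA (left) and of distinct TRA-TRB clonotypes (right) that held a TRAV14 chain, in percent, with points for the 3 datasets, bars for exact 95% intervals and counts above them. The mice without uveitis have the highest point on both sides, at 11.0% of cells and 9.30% of clonotypes, and only the left side has intervals that do not overlap.

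Among 20 α families (the δ-shared TRAV14 gene counted on its own), TRAV14 held rank 5 by cells in dataset 1, tied with TRAV4, rank 9 in dataset 2 and rank 5 in mice without uveitis. By clonotypes it held ranks 5, 7 (tied with TRAV3) and 6. Other families kept their δ-shared genes in these counts. With its own included, TRAV14 had 48 clonotypes without uveitis, against 46 for TRAV12, which ranked above it when that gene was left out. The families closest to TRAV14 without that gene, by the sum of absolute differences in share of cells over the 3 datasets, were TRAV4 (6.30 percentage points), TRAV13 (7.01) and TRAV3 (7.97). TRAV4 was found in 6.45%, 6.97% and 9.52% of cells in the same order of datasets, and TRAV13 in 4.30%, 6.36% and 10.4%, neither lowest in dataset 2. TRAV3 was lowest there as TRAV14 was (5.38%, 3.64% and 5.59%), and so were TRAV5 (5.91%, 1.82% and 3.73%) and TRAV10 (4.30%, 1.52% and 3.11%), so a low share in dataset 2 was not particular to TRAV14. Of the larger families with several copies, TRAV6 had the same order of datasets as TRAV14 (8.60%, 6.67% and 15.7% of cells). TRAV7 was also highest without uveitis (8.06%, 9.39% and 15.9%), as were TRAV4 and TRAV13, so that trait was not particular to TRAV14 either. TRAV9 (26.3%, 46.7% and 17.6%) and TRAV12 (23.1%, 17.9% and 12%) were instead lowest without uveitis.

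Of the 8 genes that the rule allows, 6 were found, and each of the 6 was found in every dataset. TRAV14N-1 was called most often, in 5 cells (4 clonotypes), 1 cell and 18 cells (12 clonotypes) of dataset 1, dataset 2 and the mice without uveitis, or 2.69% (0.878 to 6.16%), 0.303% (0.00767 to 1.68%) and 3.73% (2.22 to 5.83%) of cells. TRAV14-1 was found in 2, 1 and 10 cells, the 10 belonging to 7 clonotypes. TRAV14N-3 was found in 1, 2 and 9 cells, TRAV14D-2 in 1, 1 and 8, TRAV14-2 in 2, 1 and 5 and TRAV14-3 in 1, 1 and 3. With the exception of TRAV14N-1 and TRAV14-1, and apart from 1 cell without a TRB, each of these cells was a clonotype of its own.

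TRAV14D-1 and TRAV14N-2, the genes with an identical twin among those found, were listed in none of the cells, which allows shares of up to 1.61%, 0.909% and 0.621%. Since their twins were found, this says only under which name the reads were listed. By listed name, copies without a letter made 5 of 11, 3 of 7 and 15 of 44 TRAV14 clonotypes. Names with N made 5, 3 and 21 and names with D made 1, 1 and 8, with wide and overlapping intervals in each case. Of the N and D names found, only TRAV14N-3 has a sequence of its own, so the split between N and D copies is not known.

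**Figure D3:**
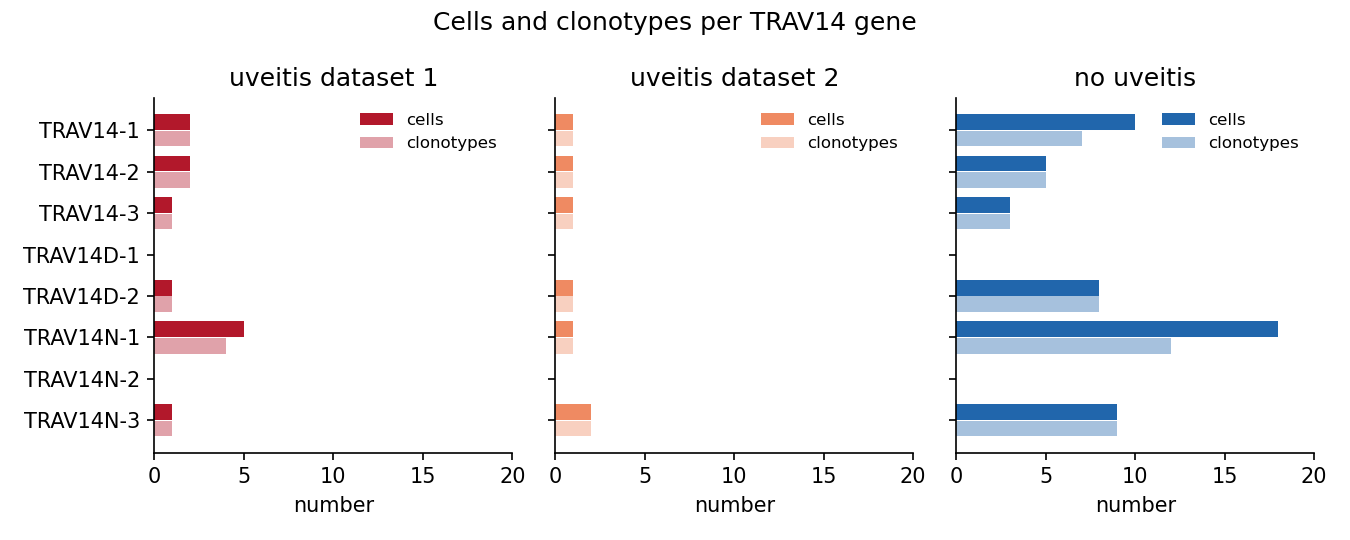
Number of cells (dark bars) and of distinct clonotypes (pale bars) for each TRAV14 gene name, with 1 panel per dataset and the same horizontal scale from 0 to 20. TRAV14N-1 has the longest bars in dataset 1 and in mice without uveitis, with 18 cells and 12 clonotypes in the latter, and TRAV14D-1 and TRAV14N-2 have none.

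TRAV14 contigs rested on 1 to 12 UMIs in dataset 1 (median 3.5), 2 to 23 in dataset 2 (median 4) and 2 to 34 in mice without uveitis (median 8). Other productive TRA contigs had medians of 5, 4 and 7. The TRB paired with them had medians of 7, 11 and 18 UMIs, against 11, 10 and 16 for the TRB paired with other TRA. In dataset 1 the TRAV14 cells thus had lower medians for both chains, and the only TRAV14 contig that rested on 1 UMI was there. The contigs with the most UMIs were TRAV14N-1 with TRAJ9 in dataset 1 (CDR3α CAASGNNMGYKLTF, 12 UMIs, with TRBV12-1 and CDR3β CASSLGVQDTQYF), TRAV14N-3 with TRAJ26 in dataset 2 (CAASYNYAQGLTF, 23 UMIs, with TRBV26 and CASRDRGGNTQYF) and TRAV14N-1 with TRAJ52 in mice without uveitis (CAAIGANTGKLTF, 34 UMIs).

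No TRAV14 clonotype was seen in more than 1 cell in mice with uveitis. In dataset 1 this was 0 of 11 cells with both chains, which allows a share of up to 27.3%, while 53 of the other 165 cells (32.1%, 25.1 to 39.8%) belonged to clonotypes of more than 1 cell. In dataset 2 it was 0 of 7, which allows up to 42.9%, against 227 of the other 317 cells (71.6%, 66.3 to 76.5%). The limit in dataset 1 lies within the interval of the other cells and that in dataset 2 below it. Cells of 1 clonotype are not independent draws, which these intervals do not cover, and the difference was not tested. Without uveitis 11 of 53 TRAV14 cells (20.8%, 10.8 to 34.1%) belonged to such clonotypes, as did 75 of the other 417 cells (18%, 14.4 to 22.0%). The TRAV14 share there was 6 of 44 (13.6%) when each cell was given only its TRA with the most UMIs, and 0 of 30 in cells with exactly 1 TRA and 1 TRB.

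The 11 cells came from 2 clonotypes, and the CDR3 bases of their chains are shown because both clonotypes carried a second α chain. Capitals in the α sequences mark bases that match neither the germline V gene nor the germline J gene read from each end; β sequences are shown without capitals.
TRAV14N-1 with TRAJ52, CDR3α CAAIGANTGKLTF: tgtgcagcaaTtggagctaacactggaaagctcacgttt
TRAV6-7-DV9 with TRAJ47, CDR3α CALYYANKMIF, in the same cells: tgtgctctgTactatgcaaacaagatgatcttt
TRBV3 with TRBJ2-2, CDR3β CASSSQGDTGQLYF, in the same cells: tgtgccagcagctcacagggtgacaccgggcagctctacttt
TRAV14-1 with TRAJ45, CDR3α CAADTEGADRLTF: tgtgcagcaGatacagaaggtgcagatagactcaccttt
TRAV4-4-DV10 with TRAJ50, CDR3α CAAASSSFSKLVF, in the same cells: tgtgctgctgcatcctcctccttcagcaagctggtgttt
TRBV20 with TRBJ1-4, CDR3β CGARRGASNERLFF, in the same cells: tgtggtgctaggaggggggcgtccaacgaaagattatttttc

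The TRAV14N-1 clonotype was found in 7 cells, 1.45% (0.585 to 2.96%) of cells with a TRA in mice without uveitis. All 7 cells also held the TRAV6-7-DV9 chain. The TRAV14N-1 contig had 2, 9, 9, 11, 15, 32 and 34 UMIs in them and the TRAV6-7-DV9 contig, in the same order of cells, 2, 5, 7, 4, 10, 29 and 24. The TRAV14N-1 chain was thus ahead in 6 cells and level in 1. An additional cell had the same TRB and only a TRAV13-1 chain.

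The TRAV14-1 clonotype was found in 4 cells, 0.828% (0.226 to 2.11%). All 4 also held the TRAV4-4-DV10 chain. Here TRAV14-1 had 2, 4, 7 and 9 UMIs and TRAV4-4-DV10 had 3, 6, 10 and 6, so the TRAV14 chain was ahead in 1 cell and behind in 3. In both clonotypes either α chain could pair with the β chain, and the tables do not show which pair bound the tetramer.

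**Figure D4:**
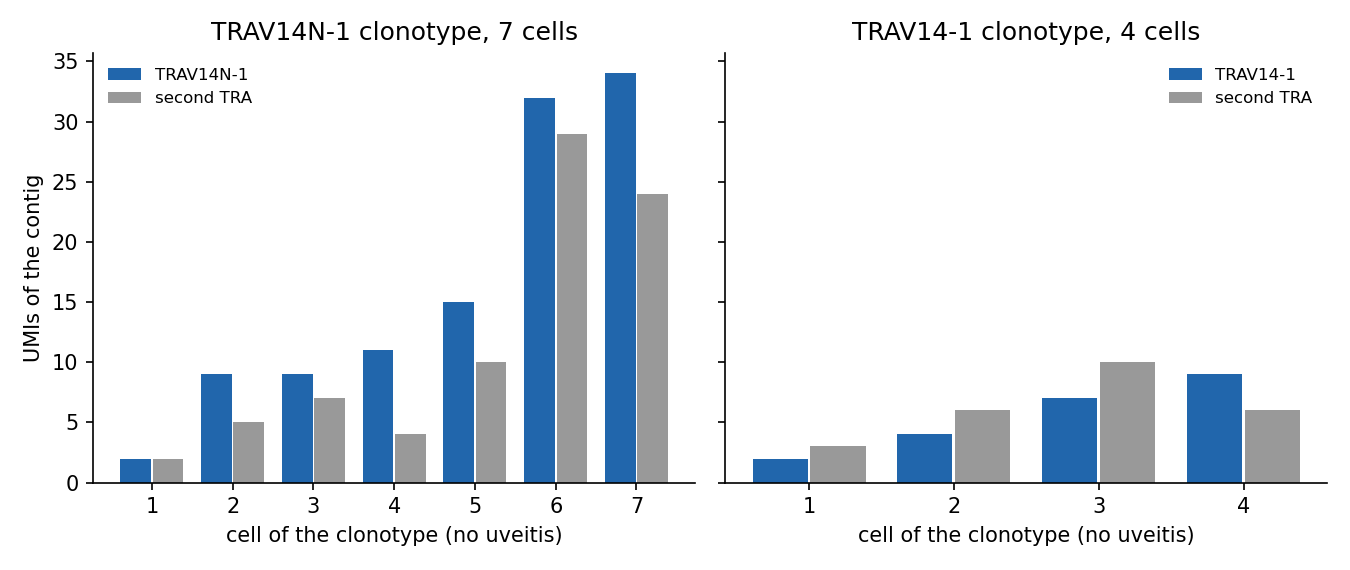
UMIs of the TRAV14 contig (blue) and of the second TRA contig (grey) in each cell of the 2 TRAV14 clonotypes found in more than 1 cell, both from mice without uveitis. Both α chains were present in all 7 and all 4 cells, with TRAV14N-1 level or ahead in each cell on the left and TRAV14-1 ahead only in cell 4 on the right.

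The second α chain and the β chain of the TRAV14-1 clonotype were found again in mice with uveitis (a pattern noticed after the values were seen). In uveitis dataset 2, 3 cells (0.909%, 0.188 to 2.63%) held TRAV4-4-DV10 with CDR3α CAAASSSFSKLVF and TRBV20 with CDR3β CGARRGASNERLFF, the same amino acids in both chains, on 2, 6 and 29 TRA UMIs. No TRAV14 contig, productive or not, was listed in those 3 cells. Each chain differed from its counterpart without uveitis by 1 base that left the amino acid the same, and none of these barcodes was listed in both datasets. Counting from 1 at the first base of the cysteine codon and giving the base without uveitis first, the differences were T9G in the α chain and G21A in the β chain; they are in capitals below.
TRAV4-4-DV10, no uveitis: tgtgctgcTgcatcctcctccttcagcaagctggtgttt
TRAV4-4-DV10, uveitis dataset 2: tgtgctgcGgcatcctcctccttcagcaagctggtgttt
TRBV20, no uveitis: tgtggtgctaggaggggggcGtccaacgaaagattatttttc
TRBV20, uveitis dataset 2: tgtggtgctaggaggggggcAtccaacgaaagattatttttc

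Over all cells, 3 of 771 distinct pairs of CDR3α and CDR3β amino acid sequences were found in more than 1 dataset, and this was the only one of the 3 held by TRAV14 cells. None of the 3 involved a TRAV14 chain itself.

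A second productive TRA was found in 3 of 12 TRAV14 cells in dataset 1 (25%, 5.49 to 57.2%), 1 of 7 in dataset 2 (14.3%, 0.361 to 57.9%) and 21 of 53 in mice without uveitis (39.6%, 26.5 to 54.0%). A cell with more than 1 TRA has more chances to hold any given family, so these shares are set beside those of all other TRA contigs. Of the latter, 35 of 193 (18.1%), 53 of 350 (15.1%) and 135 of 508 (26.6%, 22.8 to 30.6%) shared their cell with another TRA. Counted by clonotypes, 12 of 44 TRAV14 clonotypes without uveitis had a second TRA (27.3%, 15 to 42.8%), against 120 of 429 others (28.0%, 23.8 to 32.5%), so the higher share by cells came with the 11 cells of the 2 clonotypes above. In these clonotypes the second chains were of TRAV6 and TRAV4, and the other 10 TRAV14 cells with a second TRA in mice without uveitis held chains of TRAV3, TRAV6, TRAV8, TRAV9, TRAV11, TRAV12 and TRAV13.

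How doublets (droplets with more than 1 cell) were treated is not given in the sources used here, and none were removed. Each of the 25 TRAV14 cells with a second TRA held 1 productive TRB. Over all cells, both 2 TRA and 2 TRB were listed in 0, 1 and 1 barcodes of dataset 1, dataset 2 and the mice without uveitis, and none held TRAV14. The part of doublets or free RNA in the second chains was not tested.

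Some of these second chains are described further, and whether they came from their own cells was not tested. A TRAV14N-1 cell without uveitis (CDR3α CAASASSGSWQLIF, 20 UMIs) also held TRAV11 with TRAJ18 (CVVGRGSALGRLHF, 12 UMIs), the V and J genes that invariant natural killer T cells use, although this CDR3α is not their invariant sequence. It was the only join of these genes in the 3 datasets. A TRAV14-2 cell of uveitis dataset 2 (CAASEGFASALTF, 2 UMIs) also held TRAV9-4 with CDR3α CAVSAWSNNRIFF (2 UMIs), a CDR3α found in 63 cells of that dataset and in 2 of dataset 1.

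In dataset 1, 5 of 11 TRAV14 clonotypes (45.5%, 16.7 to 76.6%) had a TRB that was also the TRB with the most UMIs in a cell without that TRAV14 chain (same V gene, J gene and CDR3 bases), and so did 59 of 143 (41.3%, 33.1 to 49.8%) of other clonotypes. In dataset 2 it was 0 of 7, which allows up to 42.9%, against 33 of 148 (22.3%, 15.9 to 29.9%), and without uveitis 3 of 44 (6.82%, 1.43 to 18.7%) against 38 of 429 (8.86%, 6.34 to 12%). An additional TRAV14 clonotype without uveitis, TRAV14D-2 with TRBV31, had its TRB (CDR3β bases) in a TRAV6D-4 cell that held another TRB with more UMIs. The intervals for TRAV14 are wide, and the differences from other clonotypes were not tested. As an example, the TRBV20 chain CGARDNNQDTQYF of a TRAV14N-3 cell of dataset 1 was found in 2 more cells, both with a TRAV5-4 chain.

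TRAV14 was joined to many TRAJ genes: 9 among 11 clonotypes in dataset 1, 5 among 7 in dataset 2 and 25 among 44 in mice without uveitis, with no TRAJ gene in more than 3 clonotypes. TRAJ45 and TRAJ52 led in dataset 1 with 2 clonotypes each (18.2%, 2.28 to 51.8%), where TRAJ45 was in 0 and TRAJ52 in 2 of the other 143 clonotypes. TRAJ26 and TRAJ39 led in dataset 2 with 2 each (28.6%, 3.67 to 71.0%), against 2 each of 148 others. Without uveitis TRAJ15, TRAJ16, TRAJ18, TRAJ43 and TRAJ49 were tied at 3 clonotypes (6.82%, 1.43 to 18.7%), and were in 20 (4.66%), 6 (1.40%), 5 (1.17%), 12 (2.80%) and 9 (2.10%) of 429 others in that order. The share in other clonotypes lay below the TRAV14 interval for TRAJ45, TRAJ52, TRAJ26, TRAJ39, TRAJ16 and TRAJ18. It lay within the interval for TRAJ15, TRAJ43 and TRAJ49. With the uveitis datasets combined, TRAJ39 led with 3 of 18 TRAV14 clonotypes (16.7%, 3.58 to 41.4%). It was in 3 of 291 others there (1.03%, 0.213 to 2.98%). All these intervals for TRAV14 are wide, the leading genes were picked as the highest of many, and the differences were not tested.

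Pairing with β chains was also spread out, over 8 TRBV genes in dataset 1, 5 in dataset 2 and 16 in mice without uveitis. Without uveitis this was fewer than the 25 TRAJ genes. The leading TRBV partners were TRBV13-3, TRBV19 and TRBV20 in dataset 1 and TRBV26 and TRBV4 in dataset 2, with 2 clonotypes each, and TRBV13-2, TRBV26 and TRBV3 in mice without uveitis, with 5 each (11.4%, 3.79 to 24.6%). In dataset 1 TRBV13-3, TRBV19 and TRBV20 were in 5, 12 and 12 of 143 other clonotypes, within the TRAV14 interval of 2.28 to 51.8%. In dataset 2 TRBV26 and TRBV4 were in 10 and 16 of 148 others, within 3.67 to 71.0%. TRBV13-2, TRBV26 and TRBV3 were in 50, 26 and 41 of the other 429 clonotypes without uveitis (11.7%, 6.06% and 9.56%). Of single V gene pairs, TRAV14D-2 with TRBV26, TRAV14N-1 with TRBV13-1 and TRAV14N-1 with TRBV3 each recurred in 3 clonotypes without uveitis, and 23 of 32 pairs there were seen once. How often V gene pairs of other families recurred is not given here.

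TRBJ2-5 was the leading β joining gene of TRAV14 clonotypes in dataset 1 (4 of 11) and, level with another gene, in dataset 2 (3 of 7, with TRBJ1-1) and in mice without uveitis (8 of 44, with TRBJ2-7). It was in 30 of 143, 18 of 148 and 66 of 429 other clonotypes (21%, 12.2% and 15.4%), within the TRAV14 intervals of 10.9 to 69.2% and 8.19 to 32.7% in dataset 1 and without uveitis and of 9.90 to 81.6% in dataset 2. With the uveitis datasets combined, TRBJ2-5 was in 7 of 18 TRAV14 clonotypes (38.9%, 17.3 to 64.3%) and in 48 of 291 others (16.5%, 12.4 to 21.3%), the latter share lying below the TRAV14 interval. In dataset 2, TRBJ1-1 was in 12 of 148 other clonotypes (8.11%), also below its TRAV14 interval of 9.90 to 81.6%. Both genes were picked as the highest of the TRBJ genes, and the differences were not tested. Genes of the second TRBJ cluster made 9 of 11, 4 of 7 and 26 of 44 TRAV14 clonotypes, and 76.2%, 74.3% and 65.5% of the others.

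CDR3α of TRAV14 clonotypes had a median length of 14 residues in dataset 1 (range 12 to 16), 13 in dataset 2 (12 to 15) and 14 in mice without uveitis (6 to 16), against 13, 13 and 14 for other clonotypes. The 6-residue value was a single TRAV14N-3 chain with TRAJ44, CAASVT, which was listed as productive but lacks the usual end of a CDR3α. The next shortest chains had 11 residues. Of TRAV14 clonotypes without uveitis, 39 of 44 (88.6%) had 12 to 15 residues, close to the 374 of 429 others (87.2%) in the plot of lengths.

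**Figure D5:**
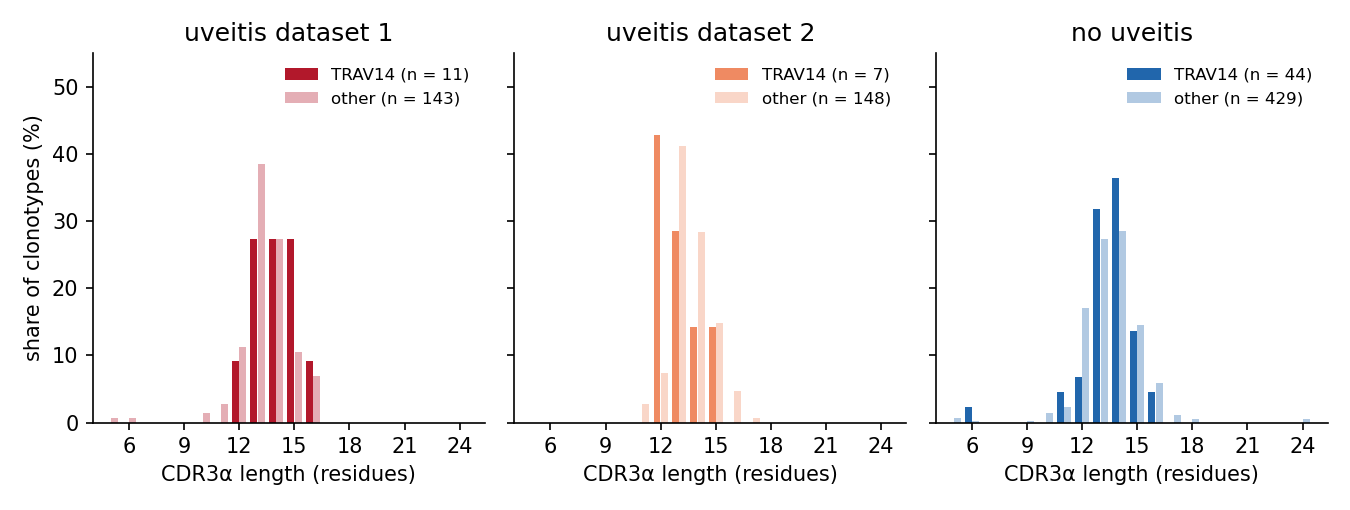
Share of clonotypes (percent) by CDR3α length in residues, for TRAV14 (dark bars) and all other α chains (pale bars), with 1 panel per dataset and the number of clonotypes in the key. TRAV14 peaks at 14 residues without uveitis (36.4% of 44), as do the other chains (28.4%). The 7 TRAV14 clonotypes of dataset 2 are most often 12 residues long (42.9%), and the others there 13 (41.2%).

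The 63 distinct TRAV14 CDR3α nucleotide sequences gave 63 amino acid sequences, and none was found as a TRAV14 chain in more than 1 dataset. Taking each cell's TRB with the most UMIs, none was found with more than 1 β chain, but 4 TRAV14 cells (2 in dataset 1 and 2 without uveitis, each with 1 TRA) also held a second productive TRB. A median of 12 of the 13 germline V bases was kept (range 5 to 13), and a median of 3 bases (range 0 to 11) matched neither the V nor the J gene. In 7 of the 63 no such base was found, which means that the CDR3α could be written from germline bases alone. Among these 7 was CAASVT, where only 5 bases were matched to the J gene. These values have no background here, since they were not computed for other α chains. Of the CDR3α sequences, 3 were also made by other V genes in mice without uveitis, 1 of them by TRAV5-4 and 2 (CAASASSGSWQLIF and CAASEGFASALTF) by TRAV7-4. The TRAV14 chain with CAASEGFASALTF was in uveitis dataset 2, so that amino acid sequence was found in 2 datasets.

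Of the 438 pairs of TRAV14 CDR3α of equal length, 8 (1.83%) differed by 1 residue. That share has no background here, since it was not computed for other α chains. All TRAV14 genes also share the same germline start of CDR3α. Both chains of the expanded clonotypes had such a neighbour in uveitis dataset 1, in each case in a single TRAV14-2 cell with the same TRAJ gene and another β chain. The TRAJ52 neighbour, with TRBV20, differed from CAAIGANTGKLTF by I4S, and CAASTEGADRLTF, with TRBV2, differed from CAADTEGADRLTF by D4S, counting from 1 at the cysteine and giving the expanded chain first. Position 4 is the residue that the germline V end encodes as the neighbours have it, and each neighbour differed from the expanded chain by 2 bases. The bases are shown with capitals for those that match neither germline gene, for comparison with the expanded chains above.
TRAV14-2 with TRAJ52, uveitis dataset 1: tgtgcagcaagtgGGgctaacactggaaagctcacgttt
TRAV14-2 with TRAJ45, CDR3α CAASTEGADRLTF, uveitis dataset 1: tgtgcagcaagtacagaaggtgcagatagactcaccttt

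The second of these neighbours holds 0 bases outside the germline genes and rested on 4 UMIs, and the first holds 2 such bases and rested on 2 UMIs. Of the other 6 neighbour pairs, 4 lay within the mice without uveitis and 2 joined them to dataset 1; no pair involved dataset 2, which had 7 of the 63 chains.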

How the data were processed

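Per the labels and the study's methods, the authors sorted tetramer-binding CD4 T cells, made libraries with the 10x Genomics 5' kit (version 1.1) and assembled and annotated TCR contigs with Cell Ranger (version 3) against a GRCm38 V(D)J reference, which is not used here. The deposited tables give each contig's V, J, CDR3, and counts of reads and UMIs, not normalized. All listed contigs were in barcodes called as cells and of high confidence. The mRNA libraries were not analysed here.

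Each productive TRA contig was paired with the productive TRB of its barcode that had the most UMIs. A clonotype had identical V, J and CDR3 bases in both chains, and was expanded when found in over 1 cell. Shares have exact 95% intervals (scipy 1.17.1, pandas 2.3.3, Python 3.11.15), and a count of 0 is given with the share that 3 counts would make. Germline genes came from GENCODE M21, 1 transcript per gene (the longest), and CDR3 bases were matched to the V gene from the left and to the J gene from the right. The scripts were tested on simulated contigs. Named are all TRAV14 genes, all expanded TRAV14 clonotypes, recurring CDR3α sequences, the contig with most UMIs per dataset, and up to 3 leading TRAJ, TRBV and TRBJ partners. Members and lists were chosen with earlier results of these data known. Alternatives changed the chains counted, the UMI minimum, the cells kept, the clonotype definition and the datasets combined.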

Additional observations from a re-analysis of the deposited data

How the results depend on the processing

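Of 148 recomputed values, 140 stayed within the interval of the reported value or, for lengths, within 1 SD of it. A leading partner had also to remain the same gene. Many of the intervals are wide, and the expanded shares of 0 in the uveitis datasets stayed 0 under each setting. The count of unchanged values is therefore a weak check. The share of cells and of clonotypes with TRAV14 was highest in mice without uveitis under all 7 and all 8 settings compared. Keeping only cells with exactly 1 TRA and 1 TRB lowered the share of cells without uveitis to 8.0% (30 of 375), outside its interval. The share was 4.08% (6 of 147) in dataset 1 and 2.23% (6 of 269) in dataset 2, both within their intervals. The same setting lowered the expanded share of TRAV14 cells without uveitis to 0 (0 of 30), since both expanded clonotypes carry a second TRA in every cell. The share listed under a D name in dataset 1, a single cell, fell to 0% under that setting and when only the TRA with most UMIs was kept. For the uveitis datasets combined the share of cells was 3.68%, and leaving out either dataset gave 2.12 to 6.45%. Counted by cells, the leading partners without uveitis became TRAJ52 (15.1%) and TRBV3 (20.8%), which the 7-cell clonotype carries. Leaving out the barcode listed in 2 datasets, an alternative chosen after seeing the data, moved none of these values out of its interval. The share with a second TRA could not be recomputed with 1 TRA per cell, where it is 0 by construction. No paired analysis was possible because the datasets came from separate pools of mice without matched units. The unequal UMIs per barcode and the 7 and 12 TRAV14 cells of the uveitis datasets limit all comparisons.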

Other observations

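TRAV14D-3-DV8, the TRAV14 gene shared with the δ locus and left out of the family, was found in productive TRA contigs of 1 cell in each uveitis dataset and 4 cells of mice without uveitis. Contigs of the counted TRAV14 genes that were listed as not productive numbered 0, 1 and 6 in dataset 1, dataset 2 and mice without uveitis.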
